A study of Mus musculus with 4 samples.

Results

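Dopaminergic-marker nuclei from punches of the hypothalamic arcuate nucleus (ARC) were picked out by their transcripts of 6 genes, and 247 such nuclei were found among 39176 kept nuclei, 30188 of which were neurons. A nucleus was a member when it held at least 1 UMI (a unique molecular identifier, which stands for a single captured transcript) of *Th*, at least 1 UMI of 2 or more of *Slc6a3*, *Slc18a2* and *Ddc*, fewer than 3 UMIs of *Ghrh* and fewer than 5 of *Agrp*. The counts of these 6 genes chose the members, so their values are given as a description and without a test. Neurons were nuclei with 2 or more UMIs of *Snap25* plus *Syt1*, and the 29944 neurons that were not members are called other neurons. Of the members, 244 also had these neuronal UMIs.

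The nuclei came from 4 libraries of single-nucleus RNA sequencing (snRNAseq), 2 of mice given DOCA-salt (deoxycorticosterone acetate with saline to drink, a model of low-renin hypertension) for 3 weeks and 2 of Sham mice over the same 3 weeks. All mice were wildtype C57BL/6J males, 10 weeks old, and each library pooled nuclei isolated from ARC punches of 2 mice, so that a library and not a mouse or a nucleus was the replicate. The libraries held 75 members (DOCA-salt 1), 64 (DOCA-salt 2), 22 (Sham 1) and 86 (Sham 2), and values below follow this order. The whole libraries held 45126915, 79437196, 53257230 and 59293582 UMIs, and the members of each, summed, 714270, 602049, 361431 and 1067400. No member barcode was shared between libraries.

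Dopamine is made from tyrosine by tyrosine hydroxylase (*Th*) and aromatic L-amino acid decarboxylase (*Ddc*), loaded into vesicles by the vesicular monoamine transporter (*Slc18a2*) and taken back up by the dopamine transporter (*Slc6a3*). The best known dopamine neurons of the ARC release dopamine toward the pituitary, where it restrains prolactin secretion, and they carry the prolactin receptor, through which prolactin feeds back on them. *Th* is also found in ARC neurons that make growth hormone-releasing hormone, which is why *Ghrh* was part of the selection.

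The genes of the rule themselves are given as a description, since members were chosen for them. Members held *Th* at 169, 203, 85.8 and 156 CPM (counts of a gene per 1000000 UMIs summed over the nuclei of a class in a library), against 7.86, 6.26, 5.76 and 9.75 in other neurons. *Slc6a3* stood at 190, 71.4, 36.0 and 83.4 CPM in members and at 10.8, 0.813, 5.47 and 3.35 in other neurons. Members of Sham 1 were the lowest of the 4 libraries for *Th*, *Slc6a3*, *Slc18a2* and *Ddc*, although they were the deepest.

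**Figure D1:**
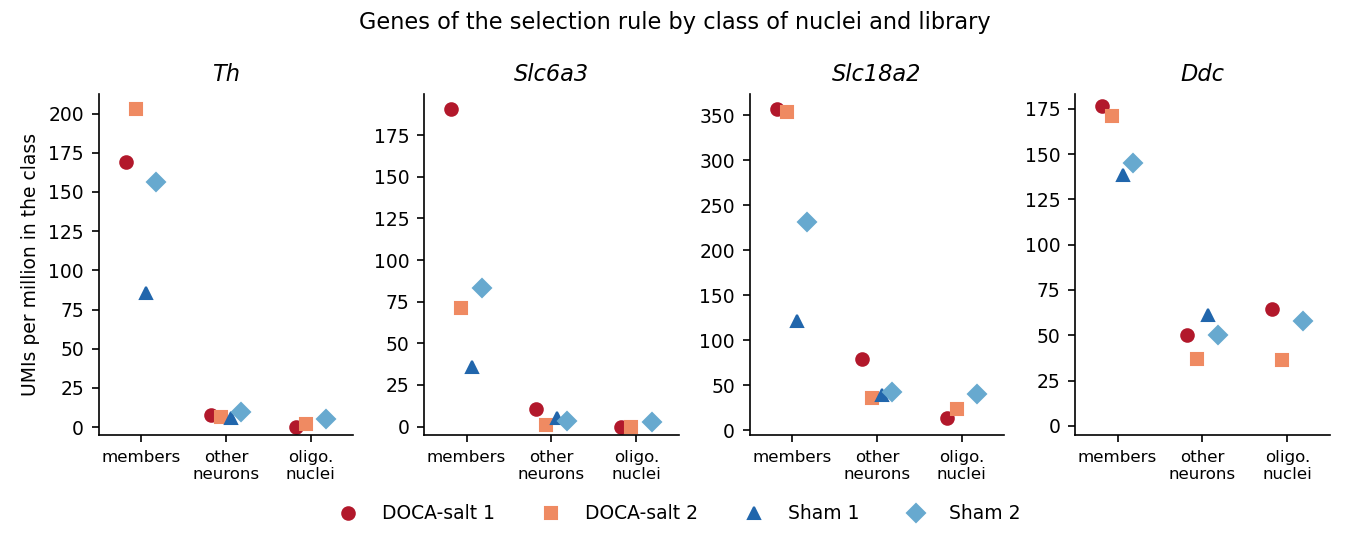
CPM of the 4 dopamine genes of the rule (y axis) in members, other neurons and oligodendrocyte nuclei, 1 point per library; the 4 oligodendrocyte nuclei of Sham 1 are not drawn. For *Th* and *Slc6a3* every member value lies above the values of other neurons, and among members Sham 1 is the lowest of the 4 libraries in all 4 panels.

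Most members passed the selection narrowly. A single *Th* UMI was found in 158 of the 247, 2 UMIs in 44 and 3 or more in 45, and the highest count was 13, in Sham 2. All 3 of *Slc6a3*, *Slc18a2* and *Ddc* were found in 78 members, and *Slc6a3* in 131, which was 78.7%, 42.2%, 40.9% and 41.9% by library. Just inside the rule, 120 members held 1 *Th* UMI and 2 of the 3 genes, and just outside it 288 nuclei held *Th* with 1 of the 3. In Sham 2 the 46 members just inside held *Ddc* at 138 CPM and *Slc18a2* at 224, against 69.7 and 75.2 in the 102 nuclei just outside. Another 24 nuclei were left out by their *Ghrh* UMIs and 6 by *Agrp*.

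A minority of neurons with *Th* held 2 or more of the other 3 dopamine genes of the rule, though they did so more often than neurons without *Th*. Among neurons within the *Ghrh* and *Agrp* limits, 34.8%, 16.4%, 21.2% and 27.4% of those with *Th* held 2 or more of *Slc6a3*, *Slc18a2* and *Ddc*, against 5.80%, 2.48%, 10.6% and 4.77% of those without *Th*. Neurons with *Th* were deeper, with median UMIs of 6121, 5889, 12312.5 and 8079.5 against 3136, 3096, 8094 and 4312.5. Of the 11 neurons of Sham 1 with 2 or more *Th* UMIs, 0 held *Slc6a3* (exact 95% interval up to 28.5%), against 42.9%, 25.0% and 39.0% in the other libraries. In oligodendrocyte nuclei, which should lack these genes but were chosen without *Snap25* and *Syt1* UMIs, so that they can understate free neuronal RNA, *Th* was found in 0 of 127 (DOCA-salt 1), 1 of 436 (DOCA-salt 2) and 2 of 256 (Sham 2), at median depths of 893, 879 and 1359 UMIs. The share of members with *Slc6a3* in Sham 1 was close to those of DOCA-salt 2 and Sham 2, so that Sham 1 stood apart in its levels of *Th*, *Slc6a3* and *Slc18a2* and in nuclei with 2 or more *Th* UMIs, but not in each measure. Main counts are also given without it.

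Members were also far deeper than other neurons. Median UMIs were 8270, 8197.5, 17339.5 and 11869 in members and 3313.5, 3125, 8253 and 4531 in other neurons, a ratio of 2.10 to 2.62. Of the members, 63 lay above the 95th percentile of UMIs among neurons of their library or held over 1% of UMIs in glial genes, which was 24%, 21.9%, 27.3% and 29.1% of members against 7.97%, 11.8%, 16.9% and 15.8% of other neurons. Such nuclei can be doublets, their part in the results was not tested nucleus by nucleus, and comparisons were repeated on the 184 members that remained.

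As a share of kept neurons, members were 0.985% (DOCA-salt 1; exact 95% interval 0.773 to 1.24), 0.430% (DOCA-salt 2; 0.330 to 0.550), 1.01% (Sham 1; 0.636 to 1.53) and 1.45% (Sham 2; 1.16 to 1.78), where intervals cover counting error only. Both DOCA-salt libraries lay below both Sham libraries, although the intervals of DOCA-salt 1 and Sham 1 overlapped. The means were 0.708% ± 0.393 (SD, n = 2) and 1.23% ± 0.305 (SD, n = 2), with p = 0.333 in a two-sided exact permutation test, the smallest that 2 against 2 libraries can give. When nuclei were thinned to 2000 UMIs each, the shares became 0.240%, 0.0798%, 0% and 0.183% and the order of the groups was lost. Under a stricter selection, with 2 or more *Th* UMIs and *Slc6a3*, 19, 18, 0 and 23 members remained. The 0 of 2171 neurons in Sham 1 allows a share of up to 0.138% (3 counts of the total), or up to 0.170% by the exact 95% interval.

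What members carried beyond the genes of the rule was asked by summing counts over members and over other neurons in each library and testing the difference with the library as a block (edgeR quasi-likelihood test, Benjamini-Hochberg false discovery rate, FDR, under 0.05). Of 14555 genes tested, 72 were higher (0.495%) and 69 lower (0.474%) in members, 0.969% in all. Of the 72, 54 were above other neurons in all 4 libraries, as were 6.95% of all genes tested, and of the 69, 53 were below in all 4, as were 8.92%. Without Sham 1, 62 were higher and 51 lower, and 99 were shared with the full set. Of the 141, 83 passed again against other neurons matched on UMIs. Without doublet-like nuclei 116 genes passed (60 higher and 56 lower), of which 84 were among the 141.

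Genes with clear gains outside the rule included *Trpc6* and *Otof*, and *Rab3b* was called higher with a gain that differed between libraries. *Trpc6* (chr9:8544142-8680741, GRCm38), a receptor-operated cation channel, was found at 25.2, 19.9, 30.4 and 19.7 CPM in members and 7.13, 3.35, 3.99 and 4.95 in other neurons. Every member value lay above every value of other neurons, and the log2 fold change was 2.16 ± 0.25 (SE, n = 4; edgeR FDR = 5.93e-08). *Trpc6* was past the threshold in each of the 15 alternative settings tried.

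*Otof* encodes otoferlin, a calcium sensor of vesicle release known from inner hair cells, and stood at 115, 38.2, 60.9 and 59.96 CPM in members against 35.2, 24.7, 27.4 and 23.1. Its lowest member value was above the highest value of other neurons, with a log2 fold change of 1.31 ± 0.14 (SE, n = 4; edgeR FDR = 4.94e-08). *Rab3b*, a small GTPase of synaptic vesicles, was at 144, 91.4, 36.0 and 102 CPM against 49.7, 58.2, 35.5 and 47.7, so that its gain was absent in Sham 1 (log2 fold change 1.01 ± 0.18, SE, n = 4; edgeR FDR = 0.0276), and it passed in 12 of 15 settings, but not without Sham 2.

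Other named gains were *Coch*, a secreted matrix protein (log2 fold change 1.86), *Scn7a*, a sodium-sensing channel (1.48), *Tmem178* (1.37), *Msn*, which ties actin to the membrane (1.36), *Pkib*, an inhibitor of protein kinase A (1.26), *Ret*, the receptor of the glial cell line-derived neurotrophic factor family (1.24), *Kcnt2*, a sodium-gated potassium channel (1.04), *Sertm1* (0.99), *Nwd2* (0.98) and *Homer2*, a postsynaptic scaffold (0.94). All 10 were higher in 4 of 4 libraries, which was a condition for being named. *Nwd2* passed in 9 of 15 settings and *Sertm1* in 12 (not without doublet-like nuclei, Sham 2 or the library block). *Ret* passed in 13 (not with stricter members or without the library block). For *Coch*, *Scn7a*, *Tmem178* and *Pkib*, Sham 1 showed the smallest gain of the 4 libraries.

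**Figure D2:**
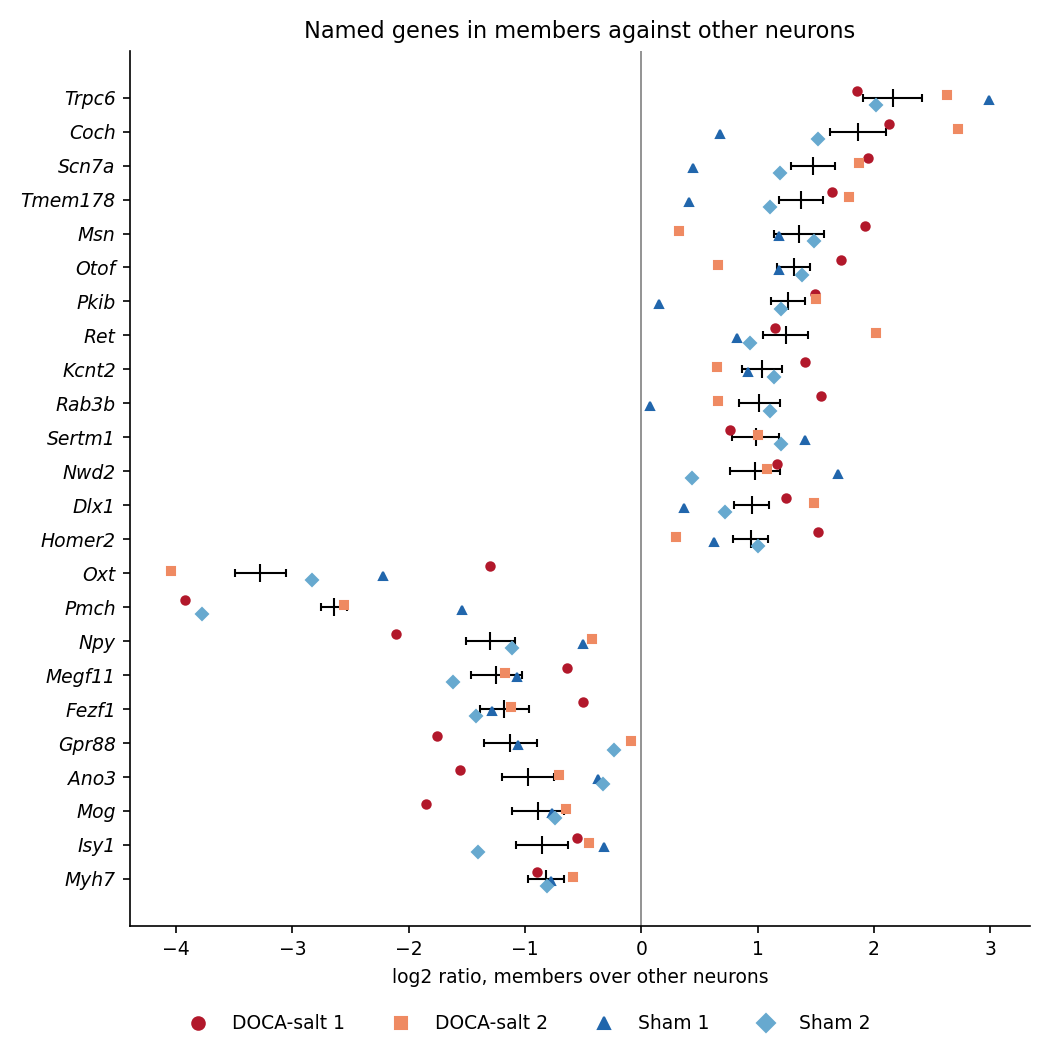
Log2 ratio of members over other neurons (x axis) for 14 genes called higher and 10 called lower that were picked for naming. Points are the 4 libraries, and black marks are the edgeR estimate with its standard error. All points of the first 14 genes lie above 0 and all points of the last 10 below 0.

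Among genes of dopamine handling outside the rule few were called, which does not place the rest at the level of other neurons. In the list for dopamine synthesis and vesicle loading, 1 of 6 tested genes was called higher and 0 lower, with a median log2 fold change of 0.05 beside -0.02 over all genes tested. The called gene was *Gch1*, which makes the tetrahydrobiopterin that tyrosine hydroxylase needs, at 9.80, 14.9, 5.53 and 13.1 CPM in members against 5.88, 3.21, 4.03 and 5.31 (log2 fold change 1.26 ± 0.32, SE, n = 4; edgeR FDR = 0.0334). *Gch1* was low in both classes, with a gap that was small in Sham 1 and DOCA-salt 1. Among 8 tested genes of uptake and breakdown only *Maoa*, a monoamine oxidase, was called, at 56, 131, 44.3 and 75.9 CPM against 45.6, 54.9, 45.3 and 48.5 (log2 fold change 0.66, edgeR FDR = 0.0295). Its gain was led by DOCA-salt 2, and in Sham 1 members were slightly below other neurons. Summed, the 8 genes of this list stood at 370, 656, 343 and 431 CPM in members against 406, 467, 371 and 357. In members of DOCA-salt 2 the most abundant was *Sncg*, at 193 CPM against 60.9. Of the 8 genes for other catecholamines and monoamines, including *Dbh*, *Tph2* and *Slc6a4*, 2 were abundant enough to test and 0 were called.

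On the receiving side, the prolactin receptor was higher in members. *Prlr* (chr15:10177238-10349180) stood at 300, 158, 216 and 341 CPM against 157, 67.6, 169 and 225 in other neurons, higher in 4 of 4 libraries, with a log2 fold change of 0.73 ± 0.10 (SE, n = 4; edgeR FDR = 0.00103). *Prlr* UMIs were found in 82.7%, 59.4%, 81.8% and 79.1% of members and in 33.9%, 20.5%, 61.6% and 51.6% of the shallower other neurons. Thinned to 2000 UMIs, the shares were 44.4%, 35.5%, 40.9% and 32.1% against 23.6%, 12.2%, 24.8% and 31.8%, so that Sham 2 no longer showed a gap. Oligodendrocyte nuclei held *Prlr* in 4.72% (DOCA-salt 1), 3.67% (DOCA-salt 2) and 14.1% (Sham 2). *Prlr* was 1 of 10 tested prolactin pathway genes called higher and 0 lower (median log2 fold change 0.12), and *Stat5b*, which carries its signal to the nucleus, was at 71.4, 66.4, 49.8 and 55.3 CPM against 55.2, 50.5, 43.0 and 52.4 (edgeR FDR = 0.615).

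*Ppp1r1b* and *Avpr1a* were the only genes called on the lists of dopamine signalling and of metabolic, steroid, thyroid and neuropeptide receptors. They made up 11.1% and 3.45% of the genes tested on their lists, beside 0.969% of all genes tested. *Drd2*, the dopamine autoreceptor, was at 21.0, 24.9, 8.30 and 9.37 CPM in members against 18.7, 11.6, 8.12 and 7.18 (edgeR FDR = 0.62). *Ppp1r1b*, a dopamine signalling protein, was the single called gene of 9 tested and was lower, with a log2 fold change of -1.53. *Ppp1r1b* was at 18.2, 1.66, 8.30 and 1.87 CPM in members against 66.97, 3.29, 4.42 and 3.24 in other neurons. Members held 13, 1, 3 and 2 UMIs of it. It was lower in 3 of 4 libraries, with a gap led by DOCA-salt 1, and higher in members of Sham 1. None of 12 metabolic hormone receptors tested was called by edgeR, where 10 had estimates above 0 and the median log2 fold change was 0.18, nor any of 10 steroid and thyroid hormone receptors (6 above 0, median 0.10). Among 29 neuropeptide receptors tested, *Avpr1a*, the vasopressin receptor, was higher, at 11.2, 21.6, 8.30 and 3.75 CPM against 4.22, 4.65, 2.55 and 2.26 (log2 fold change 1.60 ± 0.35, SE, n = 4; edgeR FDR = 0.00837). It was low throughout, and the member value of Sham 2 was below the highest value of other neurons.

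Of 54 transcription factors tested, 5 were called higher and 4 lower. *Dlx1*, a homeodomain factor of forebrain GABA neurons, was at 105, 158, 91.3 and 141 CPM in members and 44.7, 56.6, 71.7 and 86.3 in other neurons, with the groups apart (log2 fold change 0.95 ± 0.15, SE, n = 4; edgeR FDR = 0.0103), and it did not pass without doublet-like nuclei. *Foxa1*, a factor of midbrain dopamine neurons, was also called higher, at 21, 0, 2.77 and 0 CPM against 4.58, 0.0156, 1.73 and 0.168 (log2 fold change 1.93, edgeR FDR = 0.031). Its members' UMIs were thus nearly all from DOCA-salt 1, and those of DOCA-salt 2 and Sham 2 held none. The 4 lower factors were *Fezf1* and *Nr5a1*, which mark the ventromedial nucleus, *Otp*, which marks neuroendocrine neurons, and *Zfhx3*, lower in 3 of 4 libraries. *Nr4a2*, a factor known for its role in dopamine neurons, stood at 71.4, 49.8, 33.2 and 12.2 CPM against 28.4, 1.53, 17.9 and 9.67, higher in 4 of 4 libraries but not called (log2 fold change 1.52 ± 0.90, SE, n = 4; edgeR FDR = 0.771). Other factors of midbrain dopamine neurons were mixed, with *Foxa2* and *Pitx3* at 0 UMIs in members of all 4 libraries. *Sox6*, the most abundant of that list, was at 50.4, 21.6, 19.4 and 31.9 CPM against 21.3, 15.6, 20.6 and 22.4. Of 5 midbrain markers tested only *Foxa1* was called, with a median log2 fold change of 0.66.

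Neuropeptides were often lower in members, with 5 of 27 tested called lower and 0 higher and a median log2 fold change of -0.35. *Pmch*, of melanin-concentrating hormone neurons, was at 1.40, 490, 13.8 and 1.87 CPM in members against 31.8, 2895, 44.4 and 32.0 in other neurons (log2 fold change -2.64, edgeR FDR = 3.34e-22). DOCA-salt 2 stood apart in both classes. *Oxt* (oxytocin) was at 2.80, 56.5, 36.0 and 59.0 CPM against 8.61, 945, 174 and 424 (log2 fold change -3.28). It passed in 13 of 15 alternative settings, but not against other neurons matched on UMIs or without the library block. *Npy*, *Trh* and *Vip* were the other 3. *Npy*, which is made by *Agrp* neurons, was not independent of the *Agrp* limit of the rule, and it passed in 8 of 15 alternative settings. *Sst* (129, 430, 257 and 226 CPM in members), *Cartpt* (307, 110, 177 and 393), *Gal* (33.6, 223, 263 and 125) and *Tac1* (854, 73.1, 374 and 83.4) were abundant and varied between libraries, and edgeR called none of these 4 against other neurons.

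The libraries differed in the hypothalamic genes they held as a whole. Over all kept nuclei *Pmch* was at 29.2, 2849, 43.9 and 30.7 CPM, *Hcrt* (orexin) at 1.74, 803, 13.0 and 2.48, *Agrp* at 209, 1.57, 52.1 and 86.2 and *Tbx3*, a factor of the ARC, at 65.2, 2.74, 25.0 and 53.3. DOCA-salt 2 was thus rich in genes of the lateral hypothalamus and poor in those of the ARC. Its members held *Hcrt* at 676 CPM, below the 804 of its other neurons, and *Tbx3* at 1.66.

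Receptor and channel genes moved in a few places. Of 26 GABA-A and glutamate receptor subunits tested, *Grik1*, of a kainate receptor, was higher (log2 fold change 0.56), and 5 were lower, among them *Gabra5* (-0.49), *Gria3* (-0.51), *Grm5* (-0.38) and *Grm7* (-0.51), each in 4 of 4 libraries. *Gria3* was at 158, 125, 141 and 145 CPM in members against 265, 182, 178 and 178, with the groups apart (edgeR FDR = 0.000151). Of 23 calcium and pacemaker channels, *Scn9a*, a sodium channel, was the other called gene beside *Trpc6*, at 216, 116, 155 and 237 CPM against 146, 76.9, 110 and 169 (log2 fold change 0.51). Among 15 genes of secretory granules, *Dlk1* (0.38), *Scg3* (0.30) and *Vgf* (0.29) rose on the log2 scale, each in 4 of 4 libraries, and 0 fell. None of 24 potassium channels of the list, 19 gap junction and release genes and 15 immediate early genes tested was called by edgeR.

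No oligodendrocyte marker was called higher in members. Of 8 oligodendrocyte markers, 3 (*Mog*, *Mag* and *Mal*, which encode myelin proteins) were lower and 0 higher, with a median log2 fold change of -0.55. *Mal* was lower in 3 of 4 libraries, and *Mog* passed in 6 of 15 alternative settings, with a log2 fold change between -1.16 and -0.02. None of 8 astrocyte and 7 microglial markers was called by edgeR. All 7 microglial estimates lay above 0, with a median log2 fold change of 0.36. Of 6 tanycyte and ependymal markers tested, *Scn7a*, named above, was higher and *Crym*, a thyroid hormone-binding protein, lower, with a median of -0.05. *Crym* was at 26.6, 3.32, 0 and 5.62 CPM in members against 97.5, 3.14, 5.28 and 6.57. Its gap was thus led by DOCA-salt 1 and absent in DOCA-salt 2.

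Transmitter genes split the members. *Slc32a1*, the vesicular GABA transporter, without *Slc17a6*, the vesicular glutamate transporter, was found in 26.7%, 54.7%, 0% and 29.1% of members, *Slc17a6* alone in 33.3%, 1.56%, 27.3% and 8.14%, both in 24%, 34.4%, 68.2% and 47.7%, and neither in 16%, 9.38%, 4.55% and 15.1%. DOCA-salt 1 had the most nuclei with *Slc17a6* alone and DOCA-salt 2 nearly none, and the share with both was largest in Sham 1, the deepest library. Thinned to 2000 UMIs, *Slc32a1* alone was found in 22.2%, 51.6%, 31.8% and 27.4% of members and in 21.9%, 33.1%, 20.7% and 19.7% of other neurons, and *Slc17a6* alone in 26.4%, 4.84%, 13.6% and 10.7% of members and 23.5%, 20.3%, 26.3% and 26.2% of other neurons. As levels, *Slc32a1* (119, 312, 199 and 186 CPM in members; 157, 263, 175 and 146 in other neurons) and *Slc17a6* (224, 103, 266 and 144; 196, 177, 244 and 227) overlapped between the classes, and 0 of 9 GABA and glutamate genes tested were called by edgeR.

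**Figure D3:**
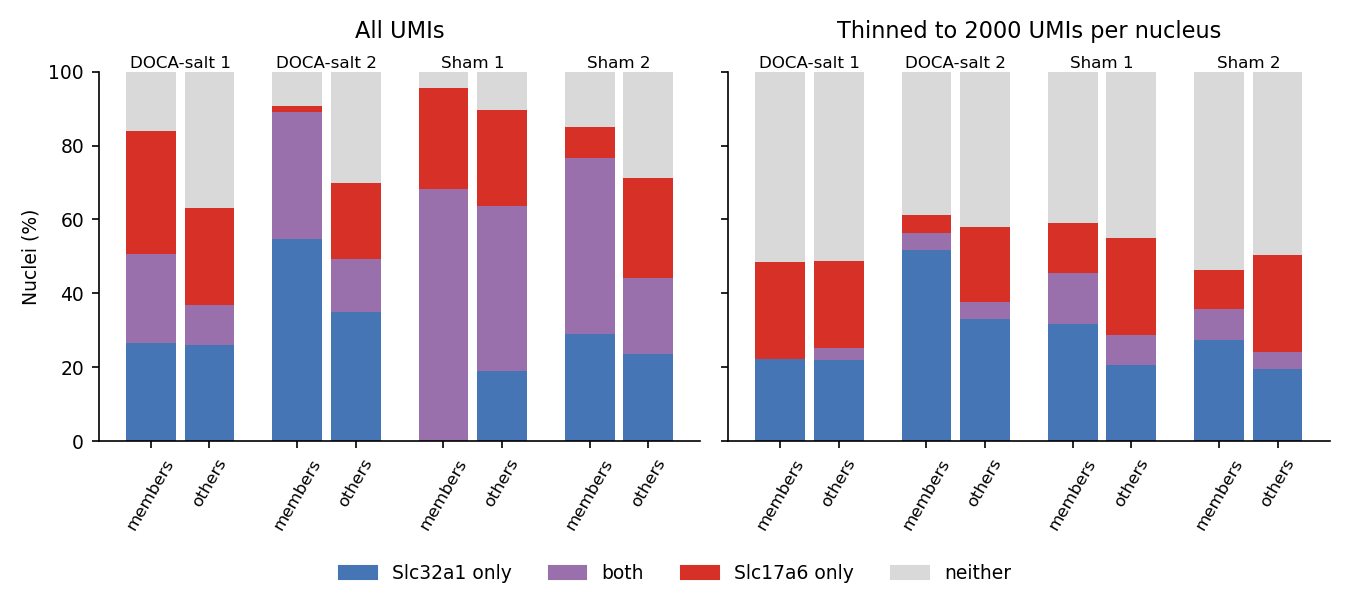
Share of nuclei (y axis, %) with *Slc32a1* only, *Slc17a6* only, both or neither, for members and other neurons of each library, with all UMIs (left) and after thinning to 2000 UMIs per nucleus (right). *Slc17a6* alone makes up 26.4% of thinned members in DOCA-salt 1 and 4.84% in DOCA-salt 2.

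Members also differed by *Slc6a3*, a gene of the rule, which is again a description. *Prlr* was at 315, 213, 184 and 490 CPM in members with *Slc6a3* and at 244, 124, 234 and 209 in those without, so that Sham 2 had the widest gap and Sham 1 went the other way. *Otof* was at 137, 39.2, 91.8 and 108 CPM with *Slc6a3* and at 32.9, 37.6, 43.4 and 17.7 without, with nearly no gap in DOCA-salt 2. In DOCA-salt 2 the 27 members with *Slc6a3* were rich in *Onecut2* (174 CPM) and *Sst* (544), and in DOCA-salt 1 the 59 with *Slc6a3* held *Onecut2* at 1.78 CPM and *Sst* at 105. *Sst* was also high in the 9 of Sham 1 (512 CPM) and stood at 247 in the 36 of Sham 2. *Six6*, a factor of the ventral hypothalamus, was at 56.9 and 67.7 CPM in members with *Slc6a3* of DOCA-salt 1 and Sham 2 and at 26.1 and 22.9 in those of DOCA-salt 2 and Sham 1.

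The last question was how these nuclei differed between treatments, tested on the sums over members of 2 DOCA-salt against 2 Sham libraries. The test did not separate treatment from the hypothalamic genes that each library held. *Agrp* over all kept nuclei, for example, was at 209 and 1.57 CPM in the DOCA-salt libraries and 52.1 and 86.2 in Sham. The part of such differences in the results between treatments was not tested. Of 9326 genes tested, 1 was higher (0.0107%) and 6 were lower (0.0643%) with DOCA-salt, 0.0751% in all (edgeR FDR under 0.05), and 790 had an unadjusted p under 0.05. All 7 had both DOCA-salt values on one side of both Sham values, as had 40.1% of the genes tested. Without edgeR's robust option 1 gene passed, *Bc1*, and without DOCA-salt 1 none did (1108 at an unadjusted p under 0.05), while DESeq2 called 9, of which 4 were shared.

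*Bc1* (chr7:144914470-144914637), a short neuronal RNA that represses translation, was at 216 and 251 CPM in members of the DOCA-salt libraries and at 2266 and 3087 in those of Sham. The groups were far apart, with a log2 fold change of -3.57 ± 0.27 (SE, n = 2 per group; edgeR FDR = 3.00e-08). Other neurons of the same libraries held 206, 304, 2220 and 3051 CPM, nearly the same values, and the difference between members and other neurons in the effect of DOCA-salt was -0.13 ± 0.11 on the log2 scale (SE; edgeR FDR = 0.993).

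*S100b*, a calcium-binding protein of glia, was at 37.8 and 66.4 CPM against 160 and 148 (log2 fold change -1.61, edgeR FDR = 0.0282). *Plpp3*, a lipid phosphatase abundant in astrocytes, was at 89.6 and 115 CPM against 232 and 234 (log2 fold change -1.24). *Map1a*, a microtubule protein, was at 237 and 198 against 977 and 492 (-1.78), and *Nts*, the neurotensin precursor, at 37.8 and 31.6 against 130 and 94.6 (-1.69). The 1 gene higher was *Slc24a5*, a cation exchanger, at 79.8 and 71.4 CPM against 11.1 and 23.4 (1.90). For all 7 genes the other neurons showed the same direction with no overlap of the groups, and the range of log2 fold changes there was -3.39 to 1.61.

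**Figure D4:**
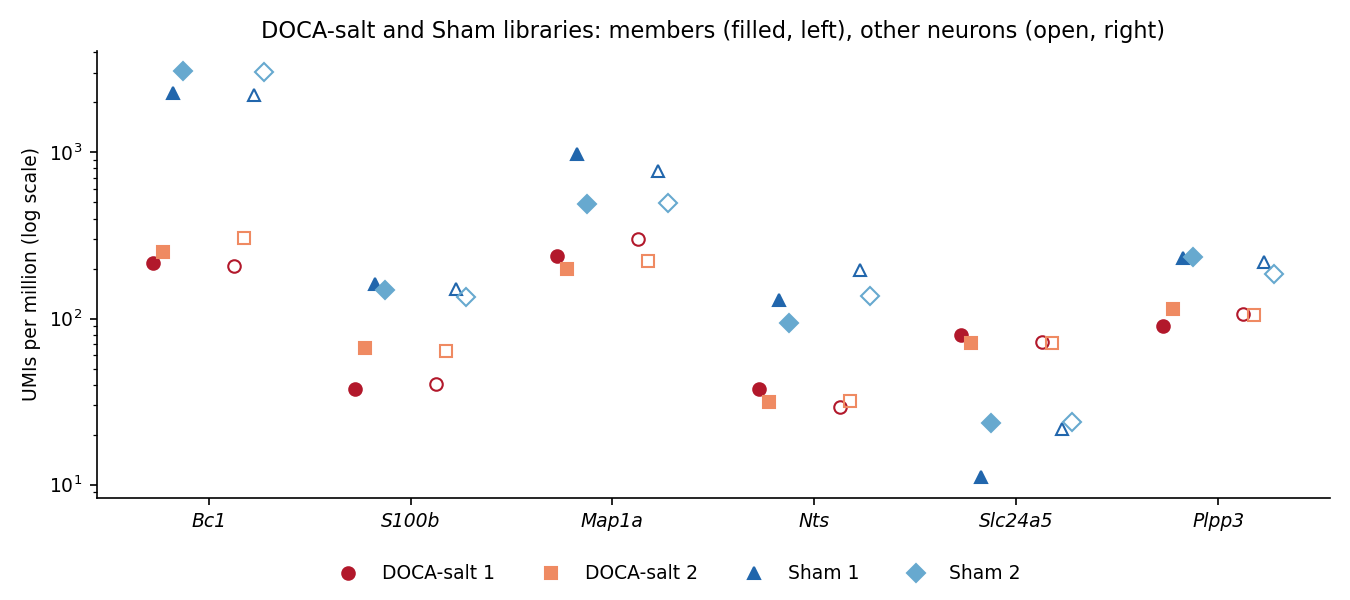
CPM (y axis, log scale) of 6 of the 7 genes called between DOCA-salt and Sham members, for members (filled) and other neurons (open) of each library. Members and other neurons of a library lie close together, so that *Bc1* is near 200 to 300 in both classes of the DOCA-salt libraries and above 2000 in both classes of the Sham libraries.

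No gene passed the test of whether DOCA-salt affected members and other neurons differently (14555 genes tested by edgeR, 0% called, lowest FDR 0.947, and 640 with an unadjusted p under 0.05). DESeq2 called 0 as well, with 133 at an unadjusted p under 0.05, and edgeR with its older dispersion fit called 6. In the other neurons alone, edgeR called 0 of 16344 genes, with 1434 at an unadjusted p under 0.05. On simulated counts, the test of the difference found 67.3% of genes changed by 2 on the log2 scale and 18.1% of those changed by 1.

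No marker of the glial lists passed the test between treatments, but their summed levels in members differed between libraries. Summed over 8 oligodendrocyte markers, members held 668 and 1095 CPM in the DOCA-salt libraries and 2454 and 1596 in Sham, with none of the markers at 0. All 7 oligodendrocyte markers tested had estimates below 0 with DOCA-salt and 0 were called by edgeR, with a median log2 fold change of -1.23 beside 0.01 over all genes tested. Other neurons held 644, 1674, 2911 and 2577 CPM of the same markers. Astrocyte markers were at 1246 and 1810 CPM against 1901 and 2030 in members, where 0 of 8 were called. Both oligodendrocyte precursor markers tested had estimates above 0, with a median of 1.44, and edgeR called 0. The part of glial RNA in the 7 calls was not tested.

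Dopamine genes outside the rule did not pass the test with DOCA-salt. Of 4 synthesis and loading genes tested, 0 were called (3 estimates above 0, median log2 fold change 0.32), and of 6 uptake and breakdown genes 0 were called. The rule's own genes, described without a test, were *Th* at 169 and 203 CPM with DOCA-salt and 85.8 and 156 with Sham, *Slc18a2* at 357 and 354 against 122 and 231, *Ddc* at 176 and 171 against 138 and 145, and *Slc6a3* at 190 and 71.4 against 36.0 and 83.4. Groups did not overlap for *Th*, *Slc18a2* and *Ddc*, as for 40.1% of the genes tested, and overlapped for *Slc6a3*. *Prlr* was at 300 and 158 CPM against 216 and 341, with overlapping groups (log2 fold change -0.35 ± 0.28, SE, n = 2 per group; edgeR FDR = 0.773). *Nr4a2*, at 71.4 and 49.8 CPM against 33.2 and 12.2, had an estimate of 1.66 and did not pass (edgeR FDR = 0.155).

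Genes that corticosteroids are known to regulate were asked about because DOCA is a mineralocorticoid. Of 6 tested, all 6 estimates were above 0 and 0 were called, with a median log2 fold change of 0.39. *Fkbp5*, a chaperone induced by glucocorticoids, was at 60.2 and 31.6 CPM against 38.7 and 29.0, with overlapping groups (log2 fold change 0.48 ± 0.37, SE, n = 2 per group; edgeR FDR = 0.762). *Nr3c2*, the mineralocorticoid receptor, was at 8.40 and 1.66 CPM against 16.6 and 10.3, with too few counts for the test between treatments. Its groups were apart, as were those of 40.1% of the genes tested, and at such low counts this says little. *Hsd11b2*, the enzyme that shields this receptor, was at 0 UMIs in members of all 4 libraries. Of 10 renin-angiotensin genes, 2 were abundant enough to test between the treatments and edgeR called 0, with both estimates above 0. Between members and other neurons 5 of these genes were tested and edgeR called 0.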

How the data were processed

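The deposited values were whole UMI counts per gene and nucleus that the authors made with Cell Ranger 3.0.1 on mm10 (submitters' notes), with no normalization. Kept nuclei had 201 to 6999 genes, under 25000 UMIs and a mitochondrial share under 15%. No doublet caller was run. Counts were summed per class and library and tested in edgeR 4.0.16 (R 4.3.3) with TMM, its filter of low counts and a library block between classes. The edgeR robust option and newer dispersion estimate were chosen after results of other settings were seen, and those counts are given below. DESeq2 1.42.0, scipy 1.17.1 (exact permutation tests) and limma 3.58.1 (with edgeR) were used. The fits were checked on simulated counts: between classes they called 87.8% of genes changed by 2 and 62.1% of those changed by 1 (log2), and between treatments 94.1% and 26.9%. They also called unchanged genes, 9 and 5 between classes and 5 and 7 between treatments. With 2 libraries a group, p-values measure the spread between these pools.

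The members and gene lists were chosen with earlier results of these data known. Genes named were those of the rule, up to 4 genes a list (called genes of largest change, then the most abundant), the 15 called higher and 10 called lower of largest change with 1 direction in 4 libraries and a mean of at least 20 CPM, and all genes called between treatments with groups apart. Other genes named (such as *Nr4a2*, *Hcrt*, *Tbx3*, *Six6*, *Onecut2*, *Stat5b*, *Drd2*, *Nr3c2*, *Hsd11b2*, or those that complete a small count) were chosen after their values were seen. Positions are from GENCODE (GRCm38). Oligodendrocyte nuclei held 5 or more UMIs of oligodendrocyte markers, *Mbp* and *Mobp* among them, and none of *Snap25* and *Syt1*. Some genes that met the rule for naming are not reported here.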

Additional observations from a re-analysis of the deposited data

How the results depend on the processing

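Between members and other neurons, 141 genes passed in the reported fit. DESeq2 gave 57 (42 higher, 15 lower), no filter of low counts 257 (90 higher, 167 lower), edgeR with the older dispersion fit 229 (107 higher, 122 lower) and the fit with no library block 2. Leaving out 1 library each gave 74 to 113, the lowest without DOCA-salt 2. RLE size factors gave 85 higher and 50 lower against 72 and 69. None of the 15 genes higher, 10 lower and 7 between treatments that the rule for naming picked changed direction in any setting. Other named genes were not followed across settings. Between treatments, 7 genes passed. RLE size factors gave 12, no filter 13, stricter members 15 (3 libraries), no doublet-like nuclei 2, members thinned to 2000 UMIs 1, and edgeR without the robust option or with the older dispersion fit 1. Leaving out 1 library each gave 0 to 17: 0 without DOCA-salt 1, 8 without DOCA-salt 2 (2 shared with the 7), 17 without Sham 1 (2 shared) and 3 without Sham 2. There the lone library of a group was assumed to vary like the others. With a replicate block 3 genes passed, 1 of them among the 7. Whether same-numbered libraries shared more than a number could not be read from their deviations. With 2 libraries a group, same-numbered pairs (-0.0479 over 9332 genes) and crossed pairs (0.0479) mirror each other by construction. The paper calls the Sham mice littermates of the DOCA-salt mice, and litter was not part of any fit. *Bc1* passed in 14 of 15 settings (not without DOCA-salt 1), *Map1a* in 7, *S100b* in 6, *Nts* in 3, *Slc24a5* and *Plpp3* in 4. The difference between classes in the effect of DOCA-salt gave 0 genes, and 6 with the older dispersion fit. The DOCA-salt minus Sham share was -0.522 percentage points, 0.0683 after thinning to 2000 UMIs (reversed), and -0.800 to -0.244 leaving out 1 library each. The cause of these moves was not tested. Depth limits what members can show: the 22 of Sham 1 held 361431 UMIs, and free RNA was judged from few oligodendrocyte nuclei.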

Other observations

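Lists of markers of hypothalamic nuclei differed in how many of their genes were called. Of 4 arcuate markers tested, all 4 estimates were below 0, with a median log2 fold change of -0.37, and the 1 called lower, *Npy*, is a gene of the *Agrp* neurons that the rule kept out. Of 6 ventromedial markers tested, all 6 estimates were below 0 and 2 were called lower (*Fezf1* and *Nr5a1*), with a median log2 fold change of -0.99. Of 6 paraventricular and supraoptic markers, all 6 were below 0 and 3 were called lower (*Otp*, *Oxt* and *Trh*), with a median of -1.06. Of 7 suprachiasmatic markers 3 estimates were above 0 and 1 was called lower (*Vip*), and of 7 lateral hypothalamic and zona incerta markers 1 was called higher and 1 lower (*Pmch*). Of ventral premammillary markers, 2 of 7 were called higher (*Dlk1* and *Nos1*), with a median of 0.03. *Nos1*, a nitric oxide synthase, was at 85.4, 24.9, 99.6 and 65.6 CPM in members against 44.8, 27.4, 55.3 and 53.7 in other neurons, higher in 3 of 4 libraries (log2 fold change 0.52 ± 0.14, SE, n = 4; edgeR FDR = 0.0466).

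The 24 nuclei that met the selection but for their *Ghrh* are a description only, since these genes were part of the rule. *Slc6a3* stood at 15.4, 0, 32.6 and 28.6 CPM in the 6, 4, 2 and 12 of them by library. These values were below the members of each library but close to them in Sham 1, where only 2 nuclei gave the value. In the 12 of Sham 2, *Ghrh* was at 931 CPM. All 12 held *Gal* and *Prlr*, at 634 and 257 CPM. In the other direction, 145 neurons held *Slc6a3*, *Slc18a2* and *Ddc* but no *Th* UMI, of which 99 were from DOCA-salt 1, 7 from DOCA-salt 2, 27 from Sham 1 and 12 from Sham 2.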
